A study of Bos taurus with 6 samples.

Results

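Gene deserts are long stretches of a chromosome without annotated genes, and the methylated DNA they carry was described here in bovine dermal fibroblasts. A desert window was a 3 kb window on chromosomes 1 to 29 that carried no gene label in the deposited tables, lay at least 500 kb from the nearest labelled window of its chromosome, and lay more than 1 Mb from either end of the chromosome. Of 902984 windows in each table, 23390 met this rule, or 2.79% of the 837275 windows on chromosomes 1 to 29. The rule used position and labels and no read count. Compared with them were 326729 labelled windows and 467803 unlabelled windows less than 500 kb from a label, called nearer windows here, all likewise more than 1 Mb from the ends.

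The libraries came from cultured dermal fibroblasts of 3 Holstein heifers, each sampled at 5 months and again at 16 months of age, with 1 library per animal and age. All cultures were at passage 5 and had received no treatment, and by the labels the 2 groups differed in the age at which the animal was sampled. Each library was made by the methylated CpG island recovery assay followed by sequencing (MIRA-Seq), in which fragments holding methylated CpG sites are pulled down by methyl-binding proteins. A single culture stood for each animal and age, and cell type was taken from the labels because a DNA library has no expression markers with which to check it.

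In mammalian cells the methyl group sits mainly on cytosines of CpG dinucleotides, and most CpG sites outside CpG islands are methylated. The pulldown recovers a fragment only if it holds enough methylated CpGs, so the read count of a window depends both on how many CpGs it holds and on how many of them are methylated. Gene deserts are typically AT-rich, poor in CpG sites, late in replication and found beside genes of neural and developmental function. No input library and no CpG count entered the values below, so fewer CpG sites and less methylation per site cannot be told apart in any of them.

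The windows held between 19.9 and 43.6 M counted reads per library. The deserts received 179509 reads at 5 months and 389088 at 16 months in animal 1, 325559 and 216808 in animal 2, and 297480 and 297173 in animal 3. These reads made up 1.14% ± 0.0871 (SD, n = 6) of those on chromosomes 1 to 29, with a range of 1.02 to 1.23%, against 2.79% of the windows. The median desert window held 0, 3, 3, 1, 2 and 3 reads in the same order of libraries, so single desert windows were at the edge of detection, and most statements below rest on sums over many windows.

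The 23390 windows formed 153 deserts of adjacent windows, of which 132 had at least 20 windows. Their median size was 111 windows, their summed length 70.2 Mb, and 2 deserts consisted of a single window. The deserts lay on 28 chromosomes, with none on chromosome 19, the chromosome on which 54.9% of windows carried a label. Chromosome 24 had the highest share of desert windows at 7.95%, followed by chromosome 1 with 5.38% and chromosome 17 with 5.13%. The longest desert covered 2.625 Mb of chromosome 11, chr11:51594685-54219684 in the UMD v3.1 build that the files use, between LOC100138037 and CTNNA2, which encodes a neuronal alpha-catenin. Its innermost window was 1812 kb from a label, the largest distance of any desert window, and 3026 desert windows were at least 1 Mb away.

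The labels that flank the deserts were counted in 4 lists defined by how the names begin. Of 294 flanking labels, 19 (6.46%) were genes of neuronal adhesion and axon guidance, against 152 of all 23986 labels (0.634%). They stood beside 22 deserts and included the cadherins CDH2, CDH7, CDH9 and CDH12, the protocadherins PCDH15 and PCDH17, the adhesion molecules CADM1, CADM2 and NCAM2, the contactin-associated proteins CNTNAP2 and CNTNAP5, the semaphorins SEMA5A and SEMA6A, and CSMD1, CSMD3, FLRT3, SLITRK1 and SLITRK5. Developmental transcription factors gave 5 flanks (1.70% against 0.963%), IRX1 and RUNX1 among them. Ion channels and neurotransmitter receptors gave 1, the serotonin receptor gene HTR1A (0.340% against 0.901%). Uncharacterised LOC loci gave 163 (55.4% against 32.3%) and stood beside 125 deserts. These are counts with no test.

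A desert here means the absence of a label in the files, and that was compared with a later annotation. Of the 294 flanking labels, 208 matched a symbol or synonym of RefSeq on ARS-UCD2.0, which was used for names and neighbours only, and 73 deserts had both flanks matched. Between the flanks of 62 of these RefSeq listed no protein-coding gene, 10 had 1 to 3, and 1 had 82. The desert with 82 lies on chromosome 1, where its flanks are 1578 kb apart in the build of the files. Whether matched labels lie at the same place in both assemblies was not tested. Among the 10 were the desert on chromosome 8 beside GALNT7, with GALNTL6 between its flanks, and a desert with the phosphatase gene PTPRK between its flanks. The flanks lie at least 500 kb from the desert windows, and whether these genes overlap the desert windows was not tested. At least 1 long non-coding RNA gene was listed between the flanks of 44 of the 73.

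The level of methylated DNA was lower in the deserts than in the other windows in every library. It is given as RPKM, the read count of a window per kilobase and per 1 M matched reads. The mean over desert windows was 0.0783 at 5 months and 0.0810 at 16 months in animal 1, 0.0892 and 0.0850 in animal 2, and 0.0674 and 0.0866 in animal 3. Nearer windows lay between 0.171 and 0.208 and labelled windows between 0.157 and 0.215, so that neither range overlapped that of the deserts. The means were 0.0812 ± 0.00784 RPKM in deserts, 0.188 ± 0.0138 in nearer windows and 0.194 ± 0.0246 in labelled windows (SD, n = 6). Within libraries the log2 ratio of deserts to nearer windows was -1.21 ± 0.19, or 2.32-fold lower, and that of deserts to labelled windows was -1.25 ± 0.16, or 2.38-fold lower. Both were negative in 6 of 6 libraries (exact two-sided sign-flip test, p = 0.03125 for each, the smallest p that 6 libraries allow, and 0.03125 after adjustment over 6 contrasts). The libraries of an animal are not independent, and over 3 animals the smallest possible exact p is 0.25, which was reached.

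**Figure D1:**
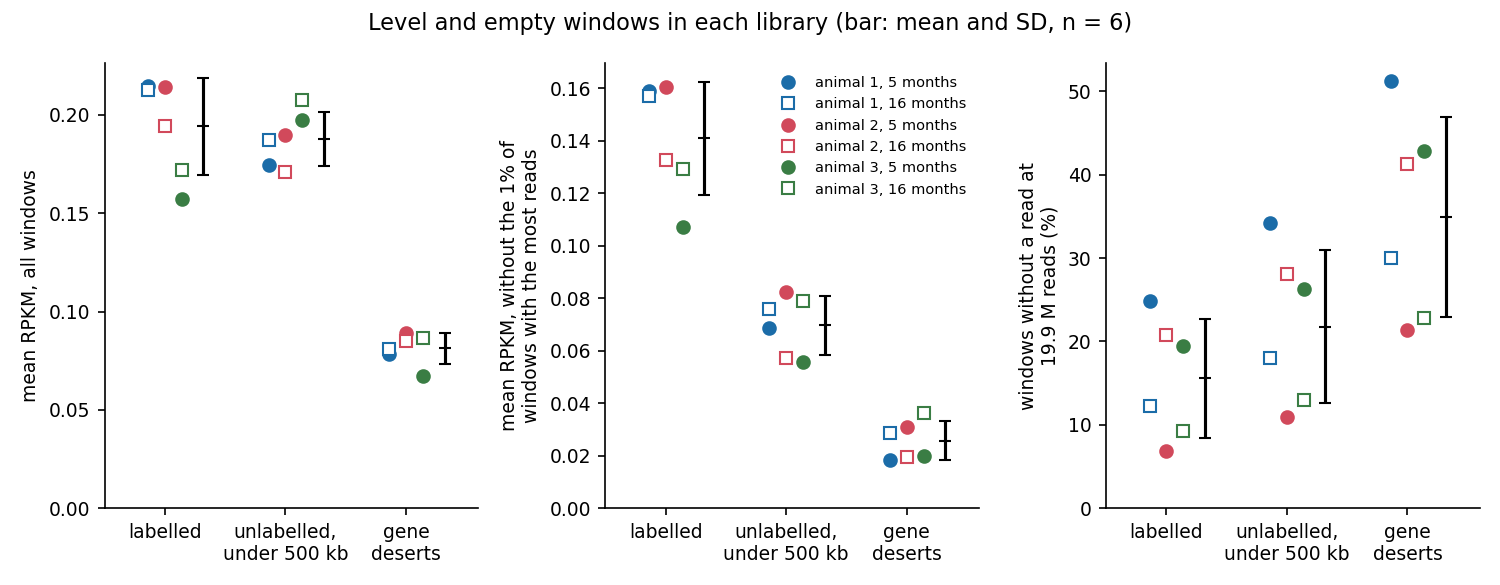
Mean RPKM over all windows, the same after removal of the top 1% of windows by reads, and the percentage of windows without a read at a common depth of 19.9 M reads, for labelled windows, unlabelled windows nearer than 500 kb and gene deserts. Each point is 1 library (filled circles, 5 months; open squares, 16 months; colours, animals), and bars give the mean and SD of 6 libraries; the desert points lie below those of the other windows in both panels of RPKM.

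Most desert windows were far quieter than the mean implies, because a few windows held most of the reads. The 1% of windows on chromosomes 1 to 29 with the highest mean CPM (reads per 1 M counted reads of the library) included 82 desert windows in 17 deserts, or 0.351% of desert windows, against 0.547% of nearer and 1.23% of labelled windows. These 82 windows received 76.8% of desert reads at 5 months and 65.0% at 16 months in animal 1, 65.5% and 77.2% in animal 2, and 70.6% and 58.3% in animal 3. Without the top 1% the mean was 0.0256 ± 0.00741 RPKM in deserts, 0.0697 ± 0.0112 in nearer windows and 0.141 ± 0.0215 in labelled windows. The deserts were then 2.78-fold lower than nearer windows and 5.63-fold lower than labelled windows, again in 6 of 6 libraries. Depending on the library, 25 to 50 of the 23390 desert windows were enough to hold 50% of all desert reads. Nearer windows were concentrated to a like degree, with 394 to 1211 of 467803 windows, whereas in labelled windows 9368 to 23148 of 326729 were needed. The densest 1% of each kind of window held 73.4% ± 8.23 of the reads in deserts, 67.0% ± 5.01 in nearer windows and 26.4% ± 3.19 in labelled windows.

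Windows without a single read were more frequent in deserts. As counted, 51.2% of desert windows were empty at 5 months and 13.3% at 16 months in animal 1, 12.3% and 39.2% in animal 2, and 29.8% and 15.6% in animal 3. The 2 highest shares belonged to the libraries with the fewest reads. When every library was thinned in expectation to the 19.9 M reads of the shallowest, the shares were 51.2% and 30.03%, 21.3% and 41.3%, and 42.9% and 22.8%, so that most of the spread between libraries remained. At that depth 34.9% ± 12.0 of desert windows were empty, against 21.8% ± 9.18 of nearer and 15.6% ± 7.16 of labelled windows. Within libraries the excess in deserts was 13.2 ± 3.07 percentage points over nearer windows and 19.4 ± 5.00 over labelled windows, present in 6 of 6 libraries (exact two-sided sign-flip test, p = 0.03125 for each). In all 6 libraries 7055 desert windows (30.2%) held a read, against 51.2% of nearer and 63.4% of labelled windows.

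**Figure D2:**
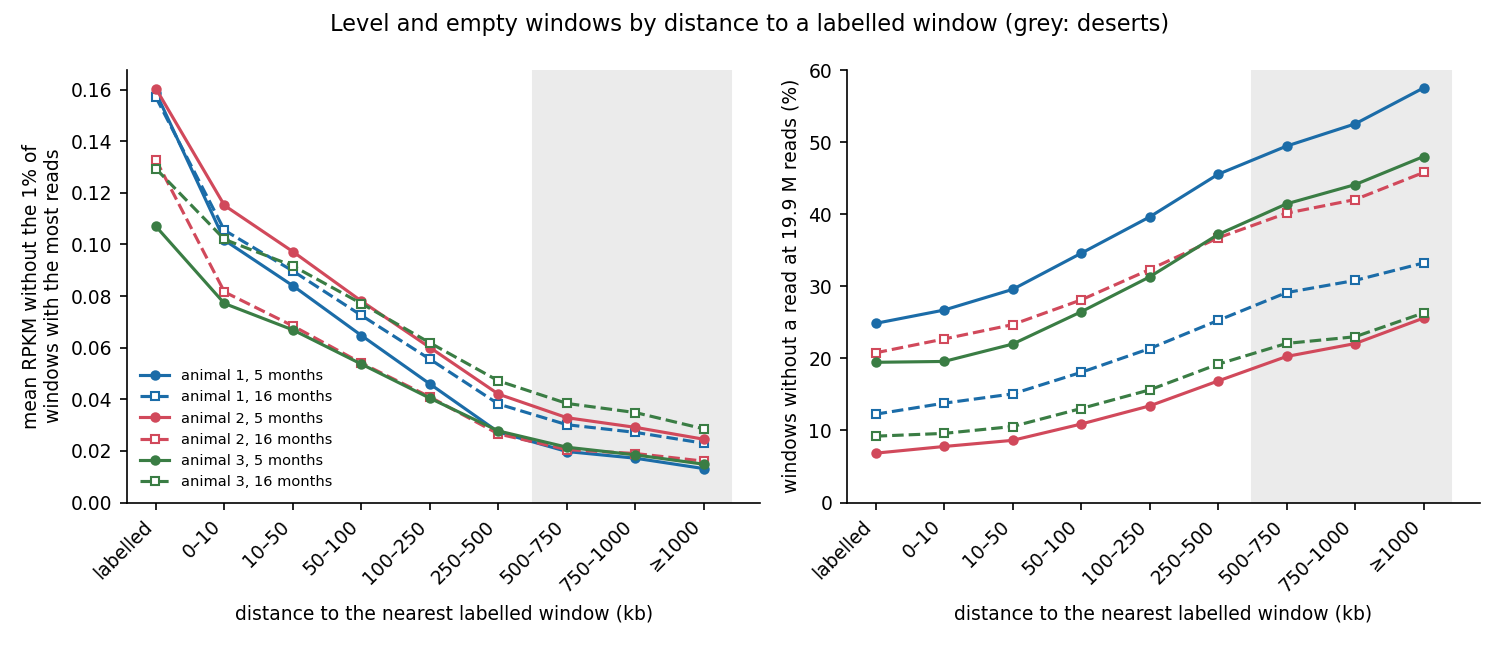
Mean RPKM after removal of the top 1% of windows by reads (left) and percentage of windows without a read at 19.9 M reads (right) for windows grouped by distance to the nearest labelled window in kb; each line is 1 library, solid at 5 months and dashed at 16 months, and the grey area marks the deserts. In all 6 libraries this level falls and the empty share rises from each distance class to the next.

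The 500 kb limit of the rule did not mark a step in the level without the dense windows. Without the top 1% of windows, the level was 0.0971 ± 0.0147 RPKM within 10 kb of a label, 0.0508 ± 0.00959 at 100 to 250 kb, 0.0348 ± 0.00882 at 250 to 500 kb, 0.0272 ± 0.00774 at 500 to 750 kb, 0.0243 ± 0.00716 at 750 to 1000 kb and 0.0200 ± 0.00619 at 1000 kb or more. From the windows nearest to a label to those farthest away the level fell 5.01-fold, with a log2 ratio of 2.33 ± 0.36, and it fell at each step in 6 of 6 libraries. This steady fall depended on leaving out the top 1%. Over all windows the mean was 0.144 RPKM within 10 kb of a label, 0.167 at 10 to 50 kb, 0.175 at 50 to 100 kb, 0.312 at 100 to 250 kb, 0.0979 at 250 to 500 kb, 0.107 at 500 to 750 kb, 0.0342 at 750 to 1000 kb and 0.0273 beyond. The share of empty windows at common depth rose over the same classes from 16.7% ± 7.53 to 39.4% ± 13.0, also at each step in 6 of 6 libraries. Just outside the limit, 937 windows at 490 to 500 kb had 0.0302 RPKM, and just inside it, 898 windows at 500 to 510 kb had 0.0278. Within the deserts the class farthest from any label was the quietest.

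**Figure D3:**
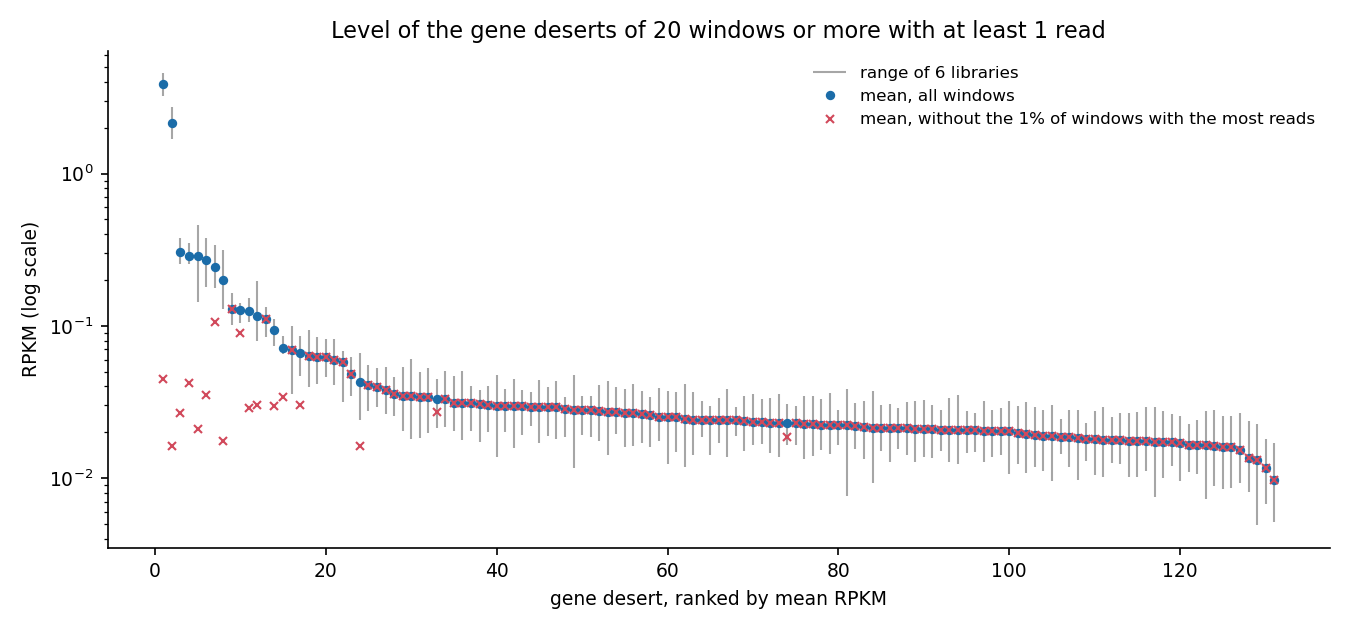
Mean RPKM of each desert of 20 windows or more that held a read, ranked from highest to lowest on a log axis, with the range over 6 libraries (grey lines) and the mean after removal of the top 1% of windows by reads (crosses). The highest desert has 3.89 RPKM, most lie near the median of 0.0240, and the crosses show how far the leading deserts fall when their densest windows are left out.

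Among the 132 larger deserts, 110 had a mean under 0.05 RPKM and 13 a mean above 0.1. The median was 0.0240 over all their windows. Without the top 1% of windows it was 0.0233, with a 10th percentile of 0.0165 and a 90th percentile of 0.0405. Of all 153 deserts 136 had no window in the top 1%.

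The 10 deserts with the most windows lay within a narrow band. The longest, beside CTNNA2, had 0.0208 ± 0.00546 RPKM over 875 windows, with 0.0152 and 0.0234 at 5 and 16 months in animal 1, 0.0250 and 0.0181 in animal 2, and 0.0151 and 0.0282 in animal 3. The libraries of the 2 ages overlapped, and the age with the higher level differed between animals. The desert of 784 windows on chromosome 14 beside CSMD3, a large transmembrane protein gene expressed in brain, had 0.0228 ± 0.00553 RPKM. The desert of 737 windows on chromosome 8 beside GALNT7, a gene for an enzyme of mucin-type O-glycosylation, had 0.0232 ± 0.00662. The desert of 514 windows on chromosome 24 between DSC3, a desmosomal cadherin gene, and CDH2, the gene for N-cadherin, had 0.0203 ± 0.00800. The other 6 lay beside the microRNA gene MIR708 on chromosome 29, ZPLD1 on chromosome 1, the lysosomal hydrolase gene AGA on chromosome 27 and VSTM2A on chromosome 4, and between LOC loci on chromosomes 24 and 17, with means from 0.0187 to 0.0280 RPKM.

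Of the 5 deserts with the highest mean, the leading one lay on chromosome 8, chr8:56535687-56988686, between LOC100294967 and LOC100295070. It had 4.27 and 3.52 RPKM at 5 and 16 months in animal 1, 4.23 and 4.56 in animal 2, and 3.24 and 3.53 in animal 3. All 6 values were above those of every other desert. This desert contained 48 of the 82 dense desert windows, and all 48 were adjacent, forming a block of 144 kb at chr8:56712687-56856686. Their mean CPM ran from 22.2 to 113 with a median of 56.7, whereas the 20 windows beside the block had a median of 0.0663 CPM and none above 0.892. The block alone held 30.6% ± 3.49 of all desert reads. For each window of the block, the ratio of the highest depth at any base to the read count was averaged over libraries. These means lay between 0.204 and 0.766, with a median of 0.369. In a single library this ratio reached 1.14 in a window on chromosome 10. The depth and the count therefore do not cover the same reads, and the ratio is not a share of the reads. Outside the top 1% windows the desert had 0.0451 ± 0.00838 RPKM.

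The desert with the second highest mean lay on chromosome 3, chr3:64080510-64581509, between LOC100140105 and LOC100295916, with 2.16 ± 0.379 RPKM. Here 8 adjacent windows, a block of 24 kb at chr3:64398510-64422509, held 18.8% ± 2.79 of all desert reads. The block included the 2 desert windows with the highest mean CPM. The first, chr3:64401510-64404509, received 11903 and 26045 reads at 5 and 16 months in animal 1, 21368 and 20260 in animal 2, and 15290 and 11582 in animal 3. Its mean was 600.2 ± 201 CPM, and its ratio of highest depth to read count ranged over single libraries from 0.723 to 0.853. The other, chr3:64413510-64416509, had 496 ± 70.0 CPM and a ratio of 0.244 to 0.371 over single libraries. Close to the left edge of the block, 6 adjacent windows at chr3:64377510-64395509 held no read in any library. Without the top 1% windows this desert fell to 0.0163 ± 0.00735 RPKM. That was just below the 10th percentile of 0.0165 among the 132 deserts of at least 20 windows.

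The other 3 of these 5 deserts likewise owed their rank to 1 to 3 windows. The desert on chromosome 1 beside NCAM2, the gene for a neural cell adhesion molecule, had 0.306 ± 0.0433 RPKM with all windows and 0.0266 ± 0.00617 without 3 dense ones. Of these dense windows, chr1:13546101-13549400 had 278 ± 69.3 CPM and chr1:13549401-13552600 had 197 ± 45.6 CPM. The desert on chromosome 29 beside FAT3, an atypical cadherin gene, had 0.288 ± 0.0366 with and 0.0420 ± 0.00868 without 1 dense window. The desert on chromosome 24 beside CELF4, a gene for an RNA-binding protein of neurons, had 0.286 ± 0.133 with and 0.0211 ± 0.00596 without 1 dense window. That window, chr24:19269331-19272330, varied between animals, with 196 and 246 CPM at 5 and 16 months in animal 1, 170 and 136 in animal 2, and 469 and 428 in animal 3. Both libraries of animal 3 lay above all others.

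**Figure D4:**
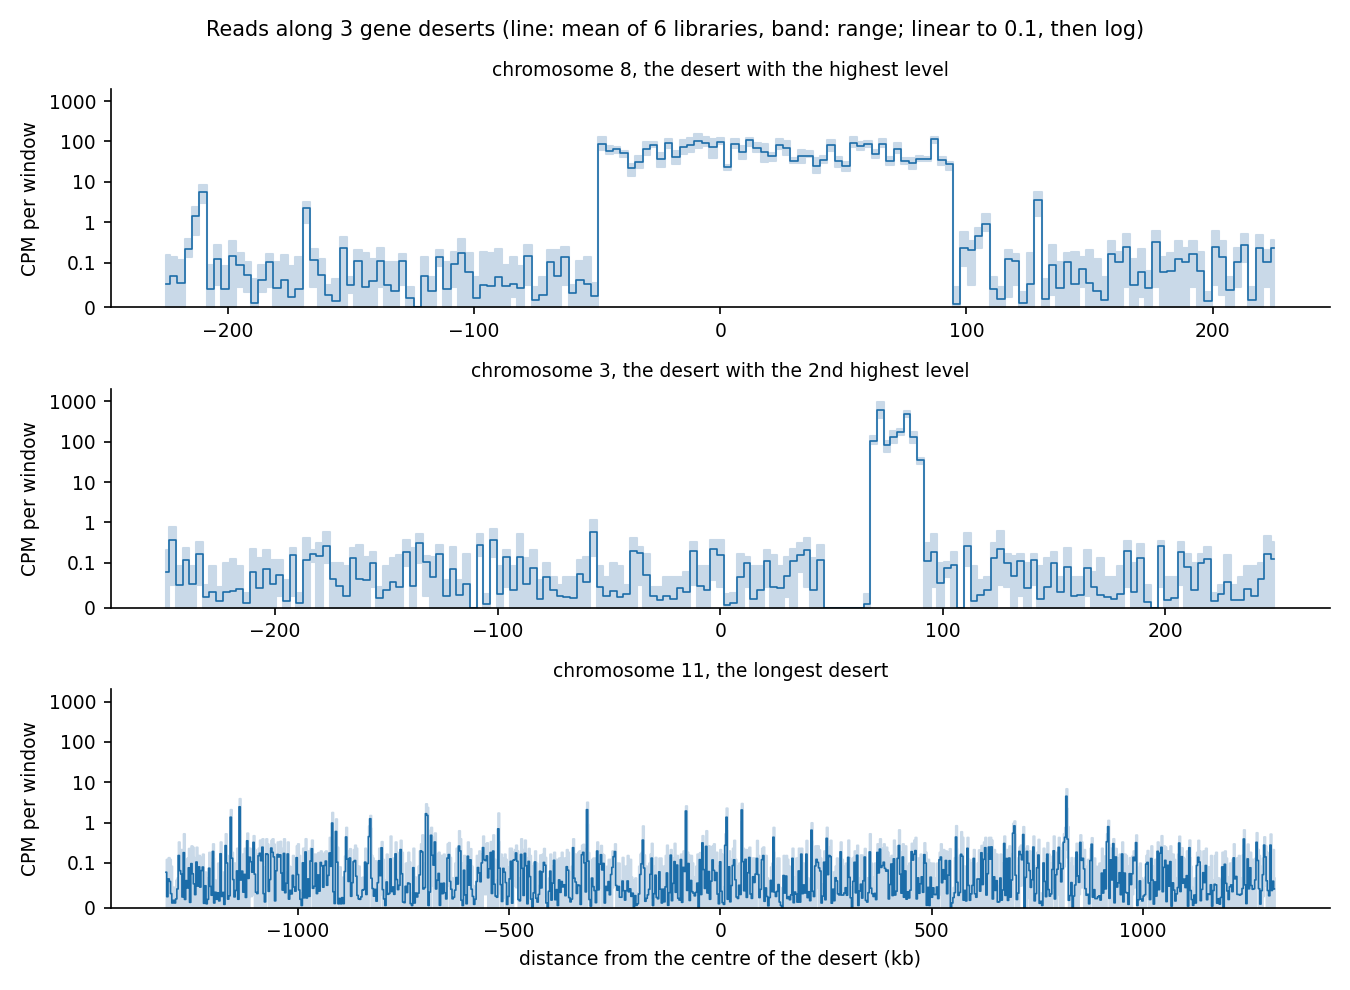
CPM of each 3 kb window along the desert with the highest level (top), the desert with the second highest level (middle) and the longest desert (bottom), against the distance in kb from the centre of the desert. The line is the mean of 6 libraries and the band their range, on an axis that is linear to 0.1 CPM and logarithmic above; the 144 kb and 24 kb blocks have sharp edges, and the longest desert has no such block.

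Set apart from these dense blocks, 5 of the 132 deserts of at least 20 windows had the highest levels when the top 1% windows were left out. They were singled out after their values were seen. The highest, on chromosome 9 between AGPAT4 and MIR2482, had 0.129 ± 0.0240 RPKM. The desert on chromosome 20 between ADAMTS16 and IRX1, a homeobox transcription factor gene, had 0.112 ± 0.0191. The desert on chromosome 25 beside RBFOX1, a gene for a splicing regulator, had 0.106 ± 0.0166, and that on chromosome 2 beside MATN1, a cartilage matrix protein gene, had 0.0901 ± 0.0196. The fifth, on chromosome 1 between RUNX1, a transcription factor gene of blood development, and SETD4, had 0.0696 ± 0.0271. In these deserts between 5.03% and 11.3% of windows were empty at common depth, compared with 34.9% over all desert windows. This share comes from the same counts as the level by which the deserts were chosen, so it is not a separate finding.

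Position along the chromosome was examined next, also after the values were seen. Bovine autosomes are acrocentric, with the centromere near the first base. Without the top 1% windows, the 1713 desert windows within 10 Mb of the last base, in 14 deserts, had 0.0455 ± 0.0115 RPKM. The 17289 desert windows more than 10 Mb from both ends had 0.0231 ± 0.00710, and the 4306 within 10 Mb of the first base had 0.0281 ± 0.00712. The level near the last base was 2.00-fold that in between and higher in 6 of 6 libraries. That group includes deserts just named for their high level. They are those beside AGPAT4, ADAMTS16 and RUNX1, at 6.58, 3.07 and 8.81 Mb from the last base. The level of the group without them was not computed. Nearer windows showed 0.212 ± 0.0343 RPKM near the last base and 0.0509 ± 0.0110 in between, a ratio of 4.21. Near the first base they had 0.0720 ± 0.0110, so that deserts were below nearer windows at each of these 3 places, though the excess near the last base was smaller in deserts in ratio.

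At the low end, the desert of 37 windows on chromosome 7, chr7:7206446-7317445, between LOC100336881 and AP1M1, a gene for a clathrin adaptor subunit, held 0 reads in each of the 6 libraries. A count of 0 allows up to 3 reads per library, which corresponds here to between 0.000397 and 0.000832 RPKM and covers counting error only. The silence was not limited to the desert, since 358 adjacent windows at chr7:6720446-7794445, 1074 kb without a gene label, had no read in any library. In all, 269 desert windows (1.15%), these 37 included, were empty in all 6 libraries, against 0.695% of nearer and 0.354% of labelled windows. They formed 218 runs, of which 207 were single windows. Whether reads can be placed in these windows was not tested.

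The next lowest desert, of 30 windows on chromosome 20 beside the cadherin gene CDH9, had 0.00975 ± 0.00502 RPKM, from 15 to 74 reads per library. The other 3 of the 5 lowest deserts lay on chromosomes 20 and 9 between LOC loci and had means from 0.0117 to 0.0136 RPKM.

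Levels of 50 kb bins were compared between libraries to see how far the pattern along the deserts was shared. Across desert bins, Spearman's rho was 0.848 on average between the 2 libraries of an animal (0.816 to 0.877, 3 pairs) and 0.819 between animals (0.772 to 0.866, 12 pairs). In the other bins it was 0.961 and 0.949. These are descriptions over bins that share the base composition of the genome, and the lower counts of desert bins add noise.

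The comparison of ages asked whether methylated DNA in the deserts differed between cultures taken from the same animal at 5 and 16 months. The mean desert RPKM gave log2 differences, 5 months over 16 months, of -0.05, 0.07 and -0.36 in animals 1, 2 and 3, a mean of -0.11 ± 0.22 (exact two-sided sign-flip test, p = 0.75, where 3 animals cannot go below 0.25). Without the top 1% windows the differences were larger and opposed, at -0.64, 0.66 and -0.87, with a mean of -0.28 ± 0.82 (exact test, p = 0.75). The share of empty windows at common depth differed, 5 months minus 16 months, by 21.2, -19.95 and 20.1 percentage points, a mean of 7.08 ± 23.4 (exact test, p = 0.5). Neither measure had a direction shared by the 3 animals.

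The opposed directions ran through almost every desert. In the 132 larger deserts without the top 1% windows, 128 were lower at 5 months in animal 1, 2 in animal 2 and 131 in animal 3. The median log2 differences were -0.75, 0.77 and -0.87. Only 2 deserts moved the same way in all 3 animals. Pooled over windows without the top 1%, nearer windows gave -0.14, 0.52 and -0.50 and labelled windows 0.02, 0.27 and -0.27, beside the -0.64, 0.66 and -0.87 of deserts, so animals 2 and 3 had the same sign in all 3 kinds of window, with the value farthest from 0 in deserts. In each animal the library with the lower desert level outside the dense windows also had the higher share of desert reads in dense windows. Level and share come from the same desert counts, so the share is not a separate observation. The library with the lower level was the shallower one in animals 1 and 2 and the deeper one in animal 3. The part of library preparation in these differences was not tested.

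**Figure D5:**
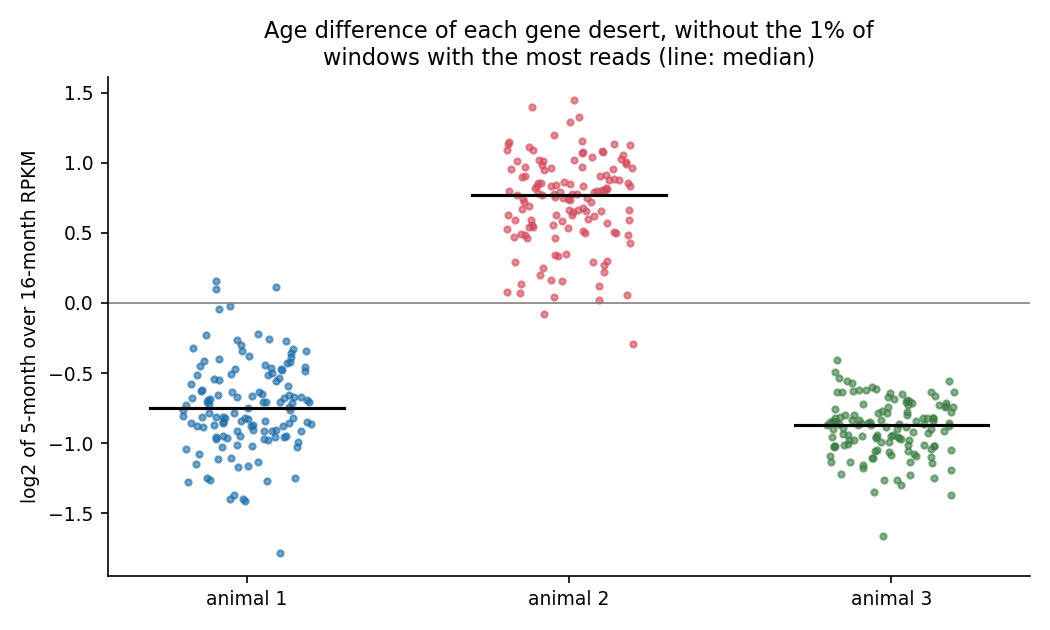
Log2 ratio of the 5-month to the 16-month RPKM of each desert of 20 windows or more, after removal of the top 1% of windows by reads, by animal; each point is 1 desert and the black line the median. The medians are -0.75, 0.77 and -0.87, on opposite sides of 0 in animal 2 and in the other animals.

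Single windows and 50 kb bins were tested for age over the whole genome with edgeR's quasi-likelihood test, blocked by animal, and p-values were adjusted over all features tested (Benjamini-Hochberg). Calls needed an FDR under 0.1 together with a change of 2-fold or more. Only 401 desert windows (1.71%) reached 1 CPM in at least 3 libraries and were tested, against 7.56% of nearer and 17.3% of labelled windows, so this scan sees only the densest desert windows. It called 2 of the 401, compared with 194 of all 104658 windows tested (0.185%).

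Both called windows were higher at 16 months and lay 3 kb apart in 1 desert on chromosome 10 between LOC100848818 and MIR2293. The window chr10:96719601-96722600 received 114 and 1354 reads at 5 and 16 months in animal 1, 249 and 372 in animal 2, and 264 and 293 in animal 3. Its log2 fold change was -1.37 (SE 0.26, adjusted p = 0.00223, edgeR), with the same direction in 3 of 3 animals and a single-animal difference from -2.52 in animal 1 to -0.37 in animal 3. The window chr10:96713601-96716600 received 42 and 547 reads in animal 1, 177 and 210 in animal 2, and 211 and 172 in animal 3. Its log2 fold change was -1.08 (SE 0.24, adjusted p = 0.0194, edgeR), and animal 3 was 0.06 higher at 5 months. The difference was largest in animal 1. Without that animal the log2 fold changes were -0.76 and -0.37 and neither was called.

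The 2 called windows alternated with denser ones that were not called. The window between them had a mean of 82.0 CPM and the one to their left 97.2 CPM, against 13.1 and 6.89 CPM in the called windows. Just beyond, at chr10:96722601-96725600, the level dropped to 0.0323 CPM. The ratio of highest depth to read count ranged over libraries from 0.483 to 1.14 and from 0.525 to 0.743 in the called windows. Both calls were lost with DESeq2, with a lower filter and with no block. RefSeq on ARS-UCD2.0 could not be placed on this desert because its flanks did not both match.

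Among the 401 tested desert windows the median log2 fold change was -0.19, against 0.02 over all windows tested. By animal, the median differences of these desert windows were -0.04, -0.31 and -0.07, against 0.01, 0.02 and 0.02 over all windows tested. The 3 medians had 1 sign on this scale, which uses TMM factors from 0.718 to 1.215. The RPKM of the quiet windows above is not scaled in this way, so the signs cannot be compared between them. Of the 401, 299 (74.6%) were lower at 5 months, against 47.4% of all tested. Windows lower at 5 months in all 3 animals numbered 100 (24.9%), against 11.4% of all tested. An unadjusted p below 0.05 was reached by 38 (9.48%), against 7.10% of all tested. Many of these windows are neighbours in the same blocks and are not independent.

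The bin scan summed windows to 50 kb and so reached the quiet part of the deserts, with 1226 desert bins among 49761 tested. It called 0 desert bins and 0 of all bins tested (0% called). An unadjusted p below 0.05 was reached by 15 desert bins and by 417 of all bins, and the likelihood-ratio test and DESeq2 also called 0. Without animal 2, however, 40 desert bins and 501 of all bins were called, of which 1 desert bin was higher at 5 months. Bins lower at 5 months in all 3 animals numbered 204 (16.6%), against 6.57% of all tested. The median log2 fold change was -0.18 in desert bins and 0.02 in all bins. By animal, the median differences of desert bins were -0.37, 0.13 and -0.19, against -0.08, 0.11 and 0.05 in all bins. Against all bins, the median of desert bins was lower in animals 1 and 3 and slightly higher in animal 2. These differences are scaled by TMM factors from 0.762 to 1.40, and those of the RPKM above are not.

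The 3 desert bins with the lowest p did not pass the adjusted threshold. The bin chr24:16251331-16302330 received 12 and 86 reads in animal 1, 37 and 55 in animal 2, and 40 and 56 in animal 3, with a log2 fold change of -1.09 (SE 0.42, adjusted p = 1, edgeR). The bin chr24:16701331-16752330, in the same desert, had a log2 fold change of -0.90 (SE 0.36), and chr1:39252201-39300200 had -1.04 (SE 0.43), both with an adjusted p of 1 (edgeR). After TMM scaling all 3 were lower at 5 months in 3 of 3 animals. In animal 2 the bin on chromosome 1 received 44 and 28 reads, from 32.1 and 21.5 M counted reads at 5 and 16 months. Its direction in that animal therefore rests on the scaling. The desert that holds it was 0.59 higher at 5 months in animal 2 in log2 RPKM, which is not scaled in this way. In data simulated at this depth, 198 of 200 bins changed 4-fold were recovered but only 31 of 200 changed 2-fold. The changed bins were drawn from all bins tested above a minimum count, with a common dispersion and no difference between animals. Recovery needed an FDR under 0.1 and the right sign, without the 2-fold limit that calls also had to pass. Desert bins held a median of 55 reads per library, against 117 in all bins. The simulation therefore gives no recovery rate for desert bins or for the full calling rule. Most simulated 2-fold differences were missed even over all bins.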

How the data were processed

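MIRA-Seq libraries of 3 animals at 2 ages were analysed. The authors filtered reads by quality and length, aligned them to UMD v3.1 with NextGENe 2.3.4 and deposited raw read counts of 3 kb windows. The deposited highest depth of each window, a coverage signal that was not normalized, was used only as a ratio to the read count. How duplicate and multiply matching reads were handled is not given in the sources used. A deposited text description without values was not used.

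RPKM used the matched reads in the file headers. Empty shares at common depth are the mean of (1 - p) to the power of the count, where p is the ratio of the shallowest library to each library. Scans used edgeR 4.0.16 in R 4.3.3 with limma 3.58.1, with features of at least 1 CPM in at least 3 libraries, TMM factors over the features tested, animal as block and age as the term tested. Positive log2 fold changes are higher at 5 months. The SE of an edgeR log2 fold change is its absolute value over the square root of the F statistic of the test. It leans on a dispersion pooled over features and is not the spread between animals. For single animals the log2 differences are of CPM + 0.5. DESeq2 1.42.0 was an alternative. The exact tests and figures used Python 3.11.15, numpy 2.4.6, pandas 2.3.3, scipy 1.17.1 and matplotlib 3.10.9. The labels give 2 cultures per animal, so the pairing comes from the animals. Deviations from the age means correlated at 0.290, 0.544 and 0.710 in the windows tested and at 0.238, -0.409 and 0.718 in the bins for animals 1, 2 and 3. In simulated windows 200 of 200 changes of 4-fold and 60 of 200 of 2-fold were recovered, with 14 and 9 false calls among 104658 windows. Here too an FDR under 0.1 was enough, without the 2-fold limit, and no difference between animals was simulated.

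Named items were the 10 deserts with the most windows, the 5 highest and 5 lowest deserts of at least 20 windows, the 5 highest desert windows, and the called windows or, where none was called, the 3 bins with the lowest p. The members, lists and rules were chosen with earlier results of these data known. No genome of the build was used, so no sequence is shown. Some flanking labels are not reported here by name.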

Additional observations from a re-analysis of the deposited data

How the results depend on the processing

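The lower level and the higher empty share of the deserts kept their direction and their exact p of 0.03125 (sign-flip test) in each alternative run with 6 libraries. For both these were no windows empty in every library, limits of 250 kb and 1 Mb and ends of 5 Mb. For the level they were also no top 1% windows, reads counted on chromosomes 1 to 29 as the denominator and LOC labels not counted, and for the empty share the share as counted. The log2 ratio to nearer windows was -2.78 at 1 Mb and -0.96 with LOC labels not counted, and that to labelled windows -2.85 at 1 Mb and -0.90 with ends of 5 Mb. A log2 ratio of medians could not be computed, since the median desert window of 1 library is at 0, and the difference of medians was -0.0141 and -0.0276 RPKM. Leaving out an animal left 4 libraries, where no exact p can be below 0.125.

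The 2 called desert windows lie 735 and 741 kb from a label. A limit of 1 Mb therefore left them out by definition, without a change to their fit. The 2 calls became 0 with the DESeq2 Wald test, with TMM factors from all features, with a 0.5 CPM filter and with no CPM filter. They numbered between 0 and 5 when an animal was left out (0 without animal 1, 1 without animal 2 and 5 without animal 3). Genome-wide the calls were 194, against 15 with DESeq2, 99 with library size only, 27 with TMM factors from all features, 96 with a 0.5 CPM filter, 2 with no CPM filter and 13, 77 and 1267 without animals 1, 2 and 3. Without the replicate block, which ignores the pairing by animal, 0 desert windows and 0 of all windows tested were called. An unadjusted p below 0.05 was then reached by 8 of 401 desert windows and by 1282 of all 104658 windows tested. Desert bins called were 0 in all but 1 alternative, and between 0 and 40 when an animal was left out. The 40 appeared without animal 2, when 501 of all bins were called, and 1 of the 40 was higher at 5 months. The cause was not tested. With library size only, the median log2 fold change moved to -0.33 in desert bins and -0.12 in all bins, a shift of both.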
